A study of Mus musculus with 8 samples.

Results

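The DNA replication machinery of mouse CD4+ T cells was followed as 37 genes whose products license origins, unwind DNA, load the sliding clamp, synthesise DNA and supply deoxynucleotides. A gene belonged to the set by its known function, and its level was read from the probe set with the highest mean over all arrays among those annotated with a single gene symbol. All 37 were measured, out of 18193 genes so annotated, and all 37 were among the 13983 genes tested. Cells of BALB/c mice were profiled on 8 expression arrays, 2 for each of 4 groups. Stimulated cells with dorsomorphin were held for 1 h on plate-bound antibody against CD3 with soluble antibody against CD28, and 4 µM dorsomorphin was then present for 6 h. Stimulated cells received DMSO, the solvent, in its place. Cells with dorsomorphin alone had the inhibitor for the same 6 h without the antibodies, and control cells had DMSO without the antibodies. Dorsomorphin is a small kinase inhibitor that acts on type I BMP receptors and on other kinases, the energy sensor AMPK among them. Nothing in the labels tells whether the 2 replicates of a group are separate mice or cultures, so p-values measure only the spread between arrays.

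DNA replication is prepared when the origin recognition complex, with the loaders Cdc6 and Cdt1, places a ring of 6 MCM proteins (MCM2 to MCM7) on DNA. The ring becomes an active helicase once Cdc45 and the GINS complex join it, after which primase and polymerase alpha start each strand, the RFC complex loads the PCNA clamp, and polymerases delta and epsilon extend the DNA. Resting T cells generally contain little of this machinery, and many of its genes are driven by E2F transcription factors as a stimulated cell approaches S phase, which in T cells comes many hours after the antigen receptor is triggered.

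The deposited signals had been brought to the same trimmed mean on all arrays, and median signals ran from 45.4 to 74.5. Arrays of 1 group correlated at 0.937 to 0.952. A working floor was set at the 40th percentile of all values (log2 5.22). Stimulated replicate 2 had 46.3% of its values under that floor, against 36.6% to 41.5% on the other arrays. RNA spike-ins added before labelling averaged log2 10.01 and 9.31 on the stimulated arrays, and 10.38 to 10.90 on the other 6. All 8 measured T cell markers exceeded the floor on all arrays, and their summed signal was 34611 to 34803 in stimulated cells with dorsomorphin, 54661 to 56275 in stimulated cells, 23922 to 32820 with dorsomorphin alone and 70938 to 71864 in control cells. The summed signal of 10 myeloid markers was 1951 to 2028, 2051 to 2460, 2014 to 2075 and 5064 to 10081 in the same order of groups. Of these 10, 6 exceeded the floor on all arrays, and Itgam was the only one under it on more than 4 arrays. In bulk samples such as these, fewer cells of a type and less RNA per cell cannot be told apart. Of the 37 genes, 32 exceeded the floor on all 8 arrays. The others were Tyms (3 arrays), Orc1 (5) and Cdc45, Gins1 and Pole (7 each).

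Stimulation alone raised a limited group of replication genes. Against control cells, 7 of the 37 rose and 0 fell (limma, Benjamini-Hochberg adjusted p under 0.05 over all tested genes), where 8.98% of all tested genes rose and 14.4% fell, 23.4% in all. The 7 were Mcm2, Mcm3, Mcm5, Orc2, Pcna, Pold2 and Pole2, with increases between 2.41-fold and 2.93-fold. The median log2 fold of the 37 genes was 0.47, against -0.27 over all tested genes, and 24 of the 37 were above 0. The arrays of the groups did not overlap for 19 genes higher and 4 lower in stimulated cells (25.1% and 42% of all tested genes), and 10 of 37 had an unadjusted p under 0.05 (38.4%). The level given to each array matters for that comparison: the median over all genes became 0.08 with arrays centred on their medians, -0.01 with cyclic loess and 0.66 with arrays set to equal spike-in signal, and 34, 33 and 37 of the 37 genes were then above 0. The number that rose was 4, 9 and 11 under these scalings, and none fell. Over all genes the calls split into 1256 higher and 2013 lower as deposited, 1001 and 1040 after median centring, 1594 and 1601 after loess, and 2079 and 368 with spike-ins. With either control array left out, 0 of the 37 genes and 0 of all genes passed, although 8 and 7 of the 37 had an unadjusted p under 0.05. Without stimulated replicate 2, 0 of the 37 passed and 9 had an unadjusted p under 0.05, while 680 of all genes passed. Actin messages had log2 3′ minus 5′ signals of 0.33 on both stimulated arrays, against 0.47 to 0.80 on the others. Gapdh messages did not set the stimulated arrays apart, at -0.49 and -0.32, within the -0.59 to -0.18 of the others. Of the markers, 3 of 10 myeloid genes fell and 0 rose (median log2 fold -1.58), and 1 of 8 T cell genes rose and 1 fell. Of 7 B cell genes, of which 1 exceeded the floor on all arrays, 1 fell and 0 rose (median log2 fold -0.61). The part of the actin and Gapdh signals, spike-in levels and markers in the result was not tested.

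Dorsomorphin lowered replication genes in stimulated cells. Against stimulated cells without it, 11 of 37 fell and 0 rose, where 12.4% of all tested genes fell and 9.71% rose, 22.1% in all. The 11 were Gins1, Prim1, Pole2, Rfc4, Pold2, Orc3, Pcna, Mcm5, Mcm3, Mcm2 and Pold1. The median log2 fold of the 37 was -0.71, against 0.07 over all tested genes, and 31 of 37 were below 0. The arrays did not overlap for 3 genes higher and 23 lower with dorsomorphin (31.4% and 29.1% of all tested genes), and 17 of 37 had an unadjusted p under 0.05 (36.4%). That median stayed below 0 under every scaling, at -0.97 with median centring (5 fell), -0.86 with loess (12 fell) and -1.62 with spike-ins (16 fell), where the medians over all genes were -0.18, -0.13 and -0.84. The calls over all genes, 1358 higher and 1738 lower as deposited, became 689 and 1520, 1141 and 2159, and 197 and 3121. This comparison shares its stimulated arrays with the one before, so a high value on those arrays enters both. Without stimulated replicate 2 or without replicate 1 of stimulated cells with dorsomorphin, 0 of the 37 genes passed (14 and 13 had an unadjusted p under 0.05), while 1140 and 1000 of all genes did. Without either control array, or without replicate 2 of stimulated cells with dorsomorphin, 4 passed. Of the markers, 3 of 8 T cell genes fell and 1 rose (median log2 fold -1.03), 2 of 7 B cell genes rose and 0 fell, and 0 of 10 myeloid genes passed; their part in the result was not tested.

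In unstimulated cells dorsomorphin changed 4 of them. Against control cells 3 of 37 fell, Pole, Rfc2 and Prim1, and 1 rose, Orc4, where 11.1% of all tested genes fell and 1.92% rose, 13.1% in all. The arrays did not overlap for 11 genes higher and 17 lower with dorsomorphin (23.2% and 42.3% of all tested genes), and 11 of 37 had an unadjusted p under 0.05 (31.4%). The median of the 37 was -0.18, against -0.24 over all genes. It was 0.04 with median centring, -0.16 with loess and -0.40 with spike-ins. Median centring and spike-in scaling shift every gene of a comparison by the same amount, so the changes under them are not particular to the 37. The calls over all genes, 268 higher and 1557 lower, became 50 and 1351 with spike-ins. Without either control array 0 of the 37 and 0 of all genes passed (7 and 5 of the 37 at an unadjusted p under 0.05), and without dorsomorphin replicate 2, 0 of the 37 and 210 of all genes did. T cell markers moved in this comparison as well, with 5 of 8 lower and 0 higher, and so did myeloid markers, with 2 of 10 lower and 0 higher. Of 7 B cell genes 1 fell and 0 rose (median log2 fold -1.09). The part of these markers in the result was not tested.

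In the presence of dorsomorphin, stimulation gave no called gene. Between stimulated cells with dorsomorphin and cells with dorsomorphin alone, 0 of 37 genes and 0% of all tested genes passed in limma, and 3.85% of all tested genes had an unadjusted p under 0.05. The only one of the 37 with such a p was Pole, at 6.17 and 6.62 in stimulated cells with dorsomorphin and 5.50 and 4.26 with dorsomorphin alone, a log2 difference of 1.52 ± 0.44 (SE, limma adjusted p = 0.939). The arrays of these groups did not overlap for 8 genes that were higher and 5 that were lower in the stimulated cells, where 17.3% and 10.2% of all tested genes did so. The median log2 fold of the 37 was 0.05, against 0.06 over all tested genes. It was -0.07 with median centring, 0.02 with loess and 0.29 with spike-ins. The interaction of stimulation and dorsomorphin, which tests whether stimulation had another effect under the inhibitor, passed for 0 of 37 genes, where 0.0858% of all genes passed. An unadjusted p under 0.05 was found for 7 of the 37 (26.4% of all genes). The smallest adjusted values were those of Mcm3 (log2 -1.72 ± 0.38, adjusted p = 0.079), Pold2 (-1.34 ± 0.35, adjusted p = 0.0957) and Mcm5 (-1.40 ± 0.40, adjusted p = 0.106) in limma.

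**Figure D1:**
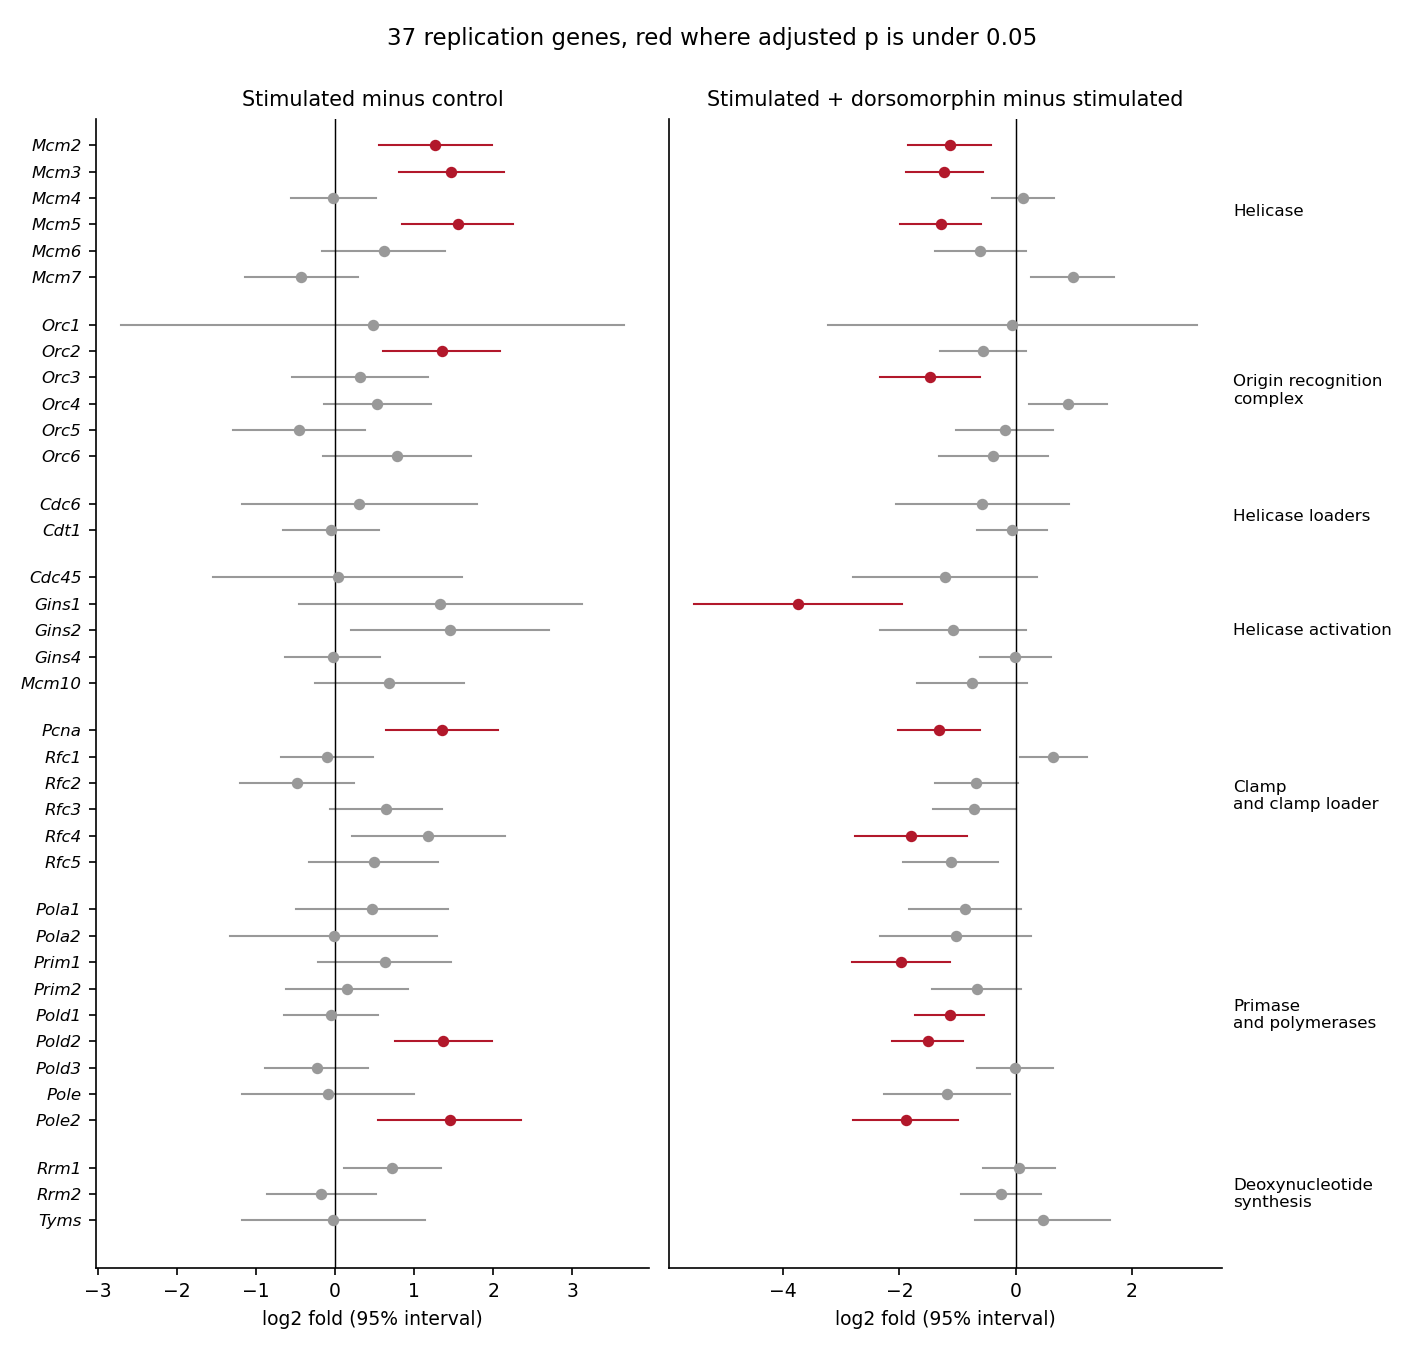
Log2 folds (x axis) with 95% intervals for the 37 genes in rows by role, for stimulated minus control cells (left) and stimulated cells with dorsomorphin minus stimulated cells (right), red where the limma adjusted p is under 0.05. On the left 7 genes are red, all to the right of 0; on the right 11 are red, all to the left of 0; Mcm4, Mcm6 and Mcm7 are grey on both sides.

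Of the 6 subunits of the MCM ring, Mcm2, Mcm3 and Mcm5 rose with stimulation and fell with dorsomorphin in stimulated cells, and the other 3 did not pass in either comparison. Mcm5 had log2 signals of 11.34 and 11.41 in stimulated cells with dorsomorphin, 12.31 and 13.02 in stimulated cells, 11.26 and 11.18 with dorsomorphin alone and 11.06 and 11.17 in control cells. Mcm3 was at 10.57 and 10.42, 11.42 and 12.02, 10.63 and 10.86, and 10.25 and 10.25 in the same order of groups. Mcm2 was at 10.29 and 10.48, 11.41 and 11.63, 10.52 and 9.91, and 10.42 and 10.09. For each of these genes both stimulated arrays without dorsomorphin lay above the other 6 arrays. Stimulation raised Mcm5 by 1.55 ± 0.28 on the log2 scale (SE, limma adjusted p = 0.0180), Mcm3 by 1.47 ± 0.27 (adjusted p = 0.0182) and Mcm2 by 1.27 ± 0.29 (adjusted p = 0.0307). With dorsomorphin in stimulated cells, Mcm5 fell by 1.29 ± 0.28 (limma adjusted p = 0.0278), Mcm3 fell by 1.23 ± 0.27 (adjusted p = 0.0281) and Mcm2 fell by 1.14 ± 0.29 (adjusted p = 0.0412). The other probe sets above the floor had the same sign in both comparisons, 4 of 4 for Mcm3 and 1 of 1 each for Mcm2 and Mcm5.

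Differences between these subunits and their partners in the ring were not tested, and the partners are given by their own values. Mcm4 was at 11.94 and 12.01 in stimulated cells with dorsomorphin, 11.74 and 11.98 in stimulated cells, 12.17 and 12.40 with dorsomorphin alone and 11.85 and 11.91 in control cells. Its difference between stimulated and control cells was -0.02 with a 95% interval of -0.55 to 0.51. The other Mcm4 probe set, nearly as bright, differed by 0.22, and with median centring the brightest gave 0.33 (limma adjusted p = 0.598). Mcm6 was at 10.35 and 10.88, 10.89 and 11.56, 10.35 and 10.19, and 10.58 and 10.64 in the same order of groups. Its stimulated arrays were above all others only narrowly, at 10.889 against 10.876 on an array of stimulated cells with dorsomorphin. On its other probe set above the floor these groups overlapped, at 10.55 and 11.26 against 10.54 and 10.76. The log2 difference of 0.61 between stimulated and control cells did not pass in limma (adjusted p = 0.218). Mcm7 was at 13.29 and 13.13, 11.91 and 12.55, 13.38 and 13.70, and 12.58 and 12.74. Every array with dorsomorphin was above every array without it. Mcm7 differed by 0.98 ± 0.29 in stimulated cells (limma adjusted p = 0.0617) and by 0.88 ± 0.29 in unstimulated cells (adjusted p = 0.101). Its other 3 probe sets had the same sign, with differences of 0.56 to 1.15 and 0.85 to 1.06. With arrays set to equal spike-in signal the dorsomorphin differences of Mcm7 were 0.07 and 0.65, and the stimulation difference of Mcm4 was 0.91 (limma adjusted p = 0.189).

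**Figure D2:**
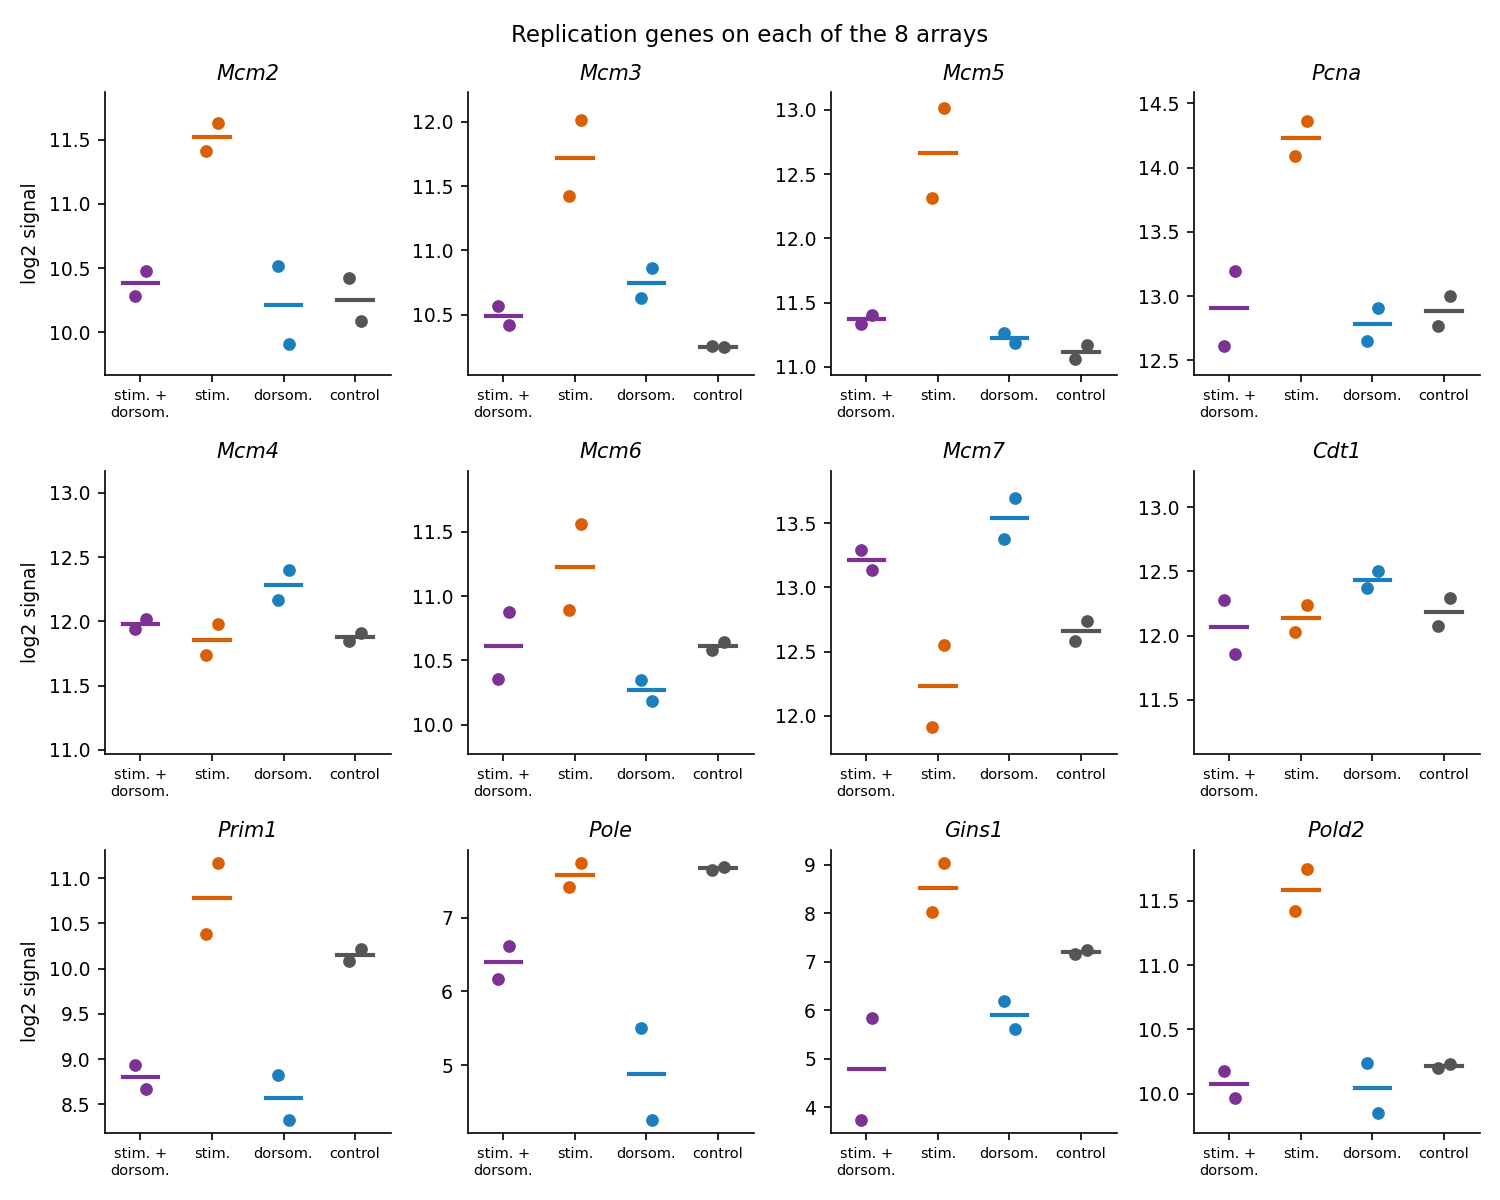
Log2 signal (y axis, with its own range in each panel) of 12 genes on the 8 arrays, with stimulated cells with dorsomorphin, stimulated cells, dorsomorphin alone and control cells from left to right. Points are arrays and bars are the means of 2; Mcm2, Mcm3, Mcm5, Pcna and Pold2 are highest on the 2 stimulated arrays, Mcm7 is highest on the 4 arrays with dorsomorphin, and Prim1 and Pole are lowest on those 4.

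The promoters of the 4 ring subunits whose windows held an E2F-type octamer are shown, because genes that passed the stimulation test and genes that did not are both among them; the Mcm2 window held none, and none was used for Mcm4. The windows run from 250 bases before to 50 bases after the RefSeq start site and were searched on both strands for the E2F-type octamers TTTGGCGC, TTTCCCGC, TTTGGCGG and TTTCGCGC. RefSeq promoters (GRCm38.p6) were in hand for 30 of the 37 genes, and 15 of the 30 (50%) held at least 1 octamer, against 2.70% of 27025 genes in the same table. Capitals mark the matches, read in the direction of the gene; adjoining matches on the 2 strands overlap in Mcm5 and Mcm6, and Mcm7 has another annotated start whose window holds none.
Mcm3 (chr1:20820263-20820562, minus strand): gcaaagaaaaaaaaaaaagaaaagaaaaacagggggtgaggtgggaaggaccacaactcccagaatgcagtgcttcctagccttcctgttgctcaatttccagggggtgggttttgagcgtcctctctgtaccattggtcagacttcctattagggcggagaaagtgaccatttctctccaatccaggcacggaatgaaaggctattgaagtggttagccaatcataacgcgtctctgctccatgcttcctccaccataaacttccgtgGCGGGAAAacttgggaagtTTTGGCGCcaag
Mcm5 (chr8:75109259-75109558, plus strand): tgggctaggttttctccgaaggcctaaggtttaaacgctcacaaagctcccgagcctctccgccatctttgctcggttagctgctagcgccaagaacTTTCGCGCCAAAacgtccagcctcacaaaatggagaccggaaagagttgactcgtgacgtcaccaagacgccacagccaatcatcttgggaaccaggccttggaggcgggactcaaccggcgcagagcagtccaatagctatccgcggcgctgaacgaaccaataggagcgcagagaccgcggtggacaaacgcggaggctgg
Mcm6 (chr1:128359656-128359955, minus strand): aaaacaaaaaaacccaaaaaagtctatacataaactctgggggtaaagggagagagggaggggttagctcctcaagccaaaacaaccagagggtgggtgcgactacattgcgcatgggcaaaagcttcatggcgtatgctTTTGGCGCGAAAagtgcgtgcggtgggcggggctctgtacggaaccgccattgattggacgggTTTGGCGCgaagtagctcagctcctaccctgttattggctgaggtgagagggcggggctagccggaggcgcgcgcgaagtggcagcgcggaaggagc
Mcm7 (chr5:138171834-138172133, minus strand): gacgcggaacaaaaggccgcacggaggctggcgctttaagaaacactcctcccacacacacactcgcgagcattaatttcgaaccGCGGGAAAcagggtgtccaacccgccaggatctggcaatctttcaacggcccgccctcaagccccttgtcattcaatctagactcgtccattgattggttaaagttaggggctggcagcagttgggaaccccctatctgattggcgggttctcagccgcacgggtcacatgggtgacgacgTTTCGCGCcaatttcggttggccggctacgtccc
In Mcm3 the matches begin 20 and 39 bases into the transcript, and in Mcm7 165 bases before and 17 bases into it. In Mcm5 they begin 153 and 149 bases before the start, and in Mcm6 110, 106 and 47 bases before it. Mcm3 and Mcm5 rose with stimulation, and Mcm6 and Mcm7 did not pass the test. Across the 30 genes, an octamer was present in 3 of the 7 that rose with stimulation and in 12 of the 23 that were not called. It was present in 5 of the 10 that fell with dorsomorphin in stimulated cells and in 10 of the 20 that were not called. Mcm2, Orc2, Pcna and Pold2 rose without an octamer in their windows. The E-box CACGTG, which reads the same on both strands, was in 4 of 30 genes (13.3%), against 8.09% of all genes. A match is a description of the letters and not evidence that a factor binds.

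The origin recognition complex, a ring of ORC1 to ORC5 that marks origins and is joined by ORC6, gave 1 call in each of the 3 comparisons. That is 16.7% of its 6 genes each time. Of all tested genes, 23.4% were called with stimulation, 13.1% with dorsomorphin in unstimulated cells and 22.1% with dorsomorphin in stimulated cells. Orc2 was at 9.71 and 9.91 in stimulated cells with dorsomorphin, 10.14 and 10.61 in stimulated cells, 9.38 and 9.67 with dorsomorphin alone and 8.76 and 9.30 in control cells. The control arrays were lowest and the stimulated arrays highest, and stimulation raised it by 1.35 ± 0.30 (log2, SE; limma adjusted p = 0.0288). Orc3 was at 8.68 and 9.35, 10.13 and 10.85, 8.94 and 8.98, and 10.08 and 10.27 in the same order, so all 4 arrays with dorsomorphin were below all 4 without it. It fell by 1.47 ± 0.35 with dorsomorphin in stimulated cells (limma adjusted p = 0.0338), and its difference in unstimulated cells was -1.22 (adjusted p = 0.0738). Orc4 was at 11.48 and 11.86, 10.52 and 11.01, 11.52 and 11.77, and 10.23 and 10.23, with the 4 dorsomorphin arrays on top. It rose by 1.41 ± 0.27 in unstimulated cells (limma adjusted p = 0.0298), and its difference in stimulated cells was 0.90 (adjusted p = 0.0658). Orc1, Orc5 and Orc6 did not pass in any of the 3, and Orc1 ranged from 4.15 to 7.39 over the 8 arrays with replicates far apart.

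The calls for Orc3 and Orc4 rested on 1 probe set each. The other Orc3 probe sets differed by -0.57 and 0.55 with dorsomorphin in stimulated cells, and the mean over probe sets gave -0.50 (limma adjusted p = 0.287). The other Orc4 probe sets differed by -0.37, 0.35 and -0.52 with dorsomorphin in unstimulated cells, and their mean with the brightest gave 0.22 (limma adjusted p = 0.633). Among the genes called in stimulated cells, Gins1, Pcna, Pold2 and Pole2 had no other probe set above the floor. Of the 7 genes that fell in stimulated cells and had another probe set above the floor, all but Orc3 had every such probe set on the same side. Of the 4 such genes that rose with stimulation, 4 did. Agreement in sign is not a call: with the mean of probe sets 5 genes in place of 11 fell with dorsomorphin in stimulated cells.

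**Figure D3:**
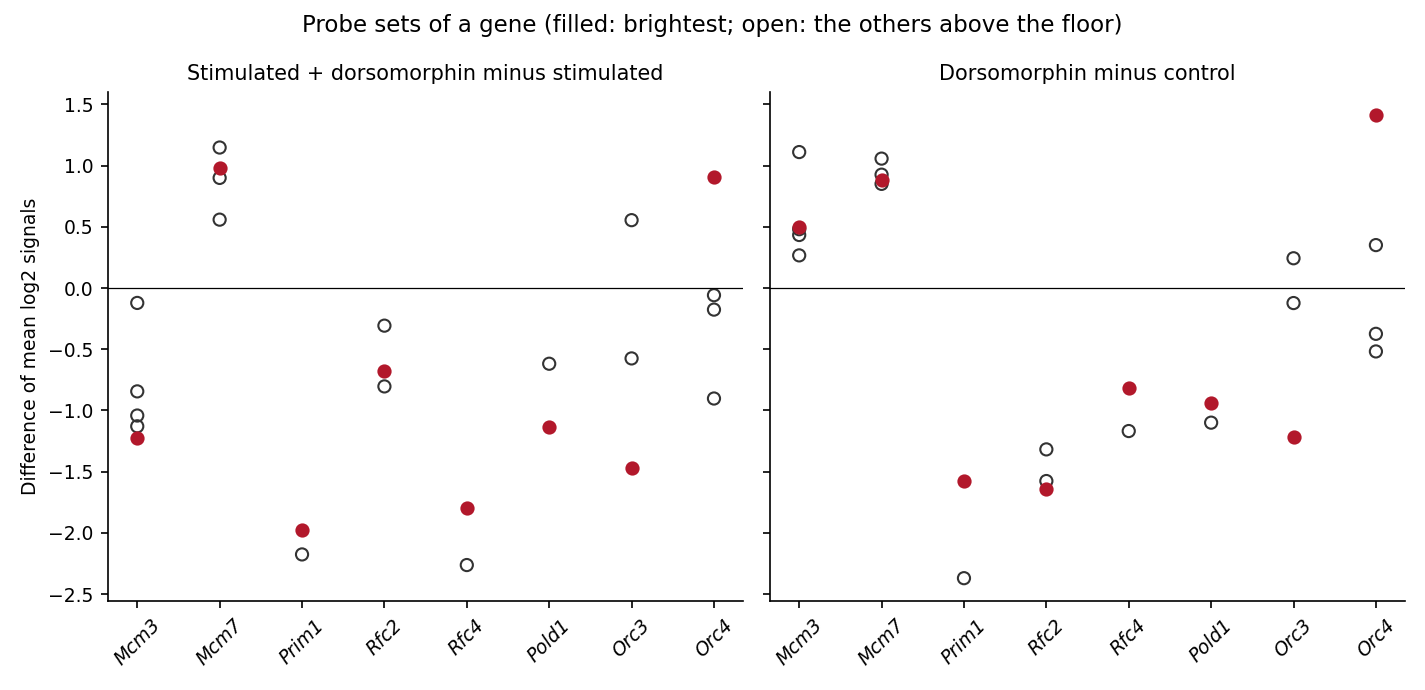
Differences of mean log2 signals (y axis) for each probe set above the floor of 8 genes, stimulated cells with dorsomorphin minus stimulated cells (left) and dorsomorphin alone minus control cells (right). Filled points are the brightest probe sets and open points the others; they share a side of 0 in both panels for Mcm3, Mcm7, Prim1, Rfc2, Rfc4 and Pold1 and lie on both sides for Orc3 and Orc4.

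The loaders showed no change that passed. Cdt1, which carries the MCM ring to the origin, was at 12.27 and 11.86 in stimulated cells with dorsomorphin, 12.03 and 12.24 in stimulated cells, 12.37 and 12.50 with dorsomorphin alone and 12.08 and 12.29 in control cells. Stimulated and control arrays overlapped, and the 95% interval of their log2 difference was -0.65 to 0.56. Cdc6, the ATPase that works with it, was at 6.21 and 6.04, 6.06 and 7.35, 6.78 and 6.07, and 7.04 and 5.74 in the same order. Replicates of 1 group lay as far apart as the groups, and the interval of -1.18 to 1.80 between stimulated and control cells leaves the increases seen for Mcm2, Mcm3 and Mcm5 within reach.

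Among the factors that turn the loaded ring into a helicase, the GINS subunit Gins1 fell with dorsomorphin in stimulated cells. It was at 3.74 and 5.84 in stimulated cells with dorsomorphin, 8.02 and 9.04 in stimulated cells, 6.19 and 5.62 with dorsomorphin alone and 7.16 and 7.23 in control cells. The 4 dorsomorphin arrays were below the 4 others, and 1 of them was under the floor. Gins1 fell by 3.74 ± 0.73 with dorsomorphin in stimulated cells (log2, SE; limma adjusted p = 0.0196), and with the array under the floor set to the floor the difference of means was -2.999. Its difference between stimulated and control cells was 1.33 ± 0.73 (adjusted p = 0.240). Gins2, another subunit, was at 7.85 and 7.60, 8.52 and 9.08, 8.17 and 6.70, and 7.47 and 7.22 in the same order. Its stimulated arrays were on top, at 1.46 ± 0.51 above control cells (limma adjusted p = 0.0894). Gins4, in the same 4-subunit complex, had log2 differences of -0.03 with stimulation (95% interval -0.64 to 0.57) and 0.00 with dorsomorphin in stimulated cells. Cdc45, which binds GINS and the MCM ring, and Mcm10, which helps to activate it, did not pass in either comparison.

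Pcna, the sliding clamp that tethers polymerases to DNA, was highest on the same 2 arrays as Mcm2, Mcm3 and Mcm5. It was at 12.61 and 13.20 in stimulated cells with dorsomorphin, 14.09 and 14.37 in stimulated cells, 12.65 and 12.91 with dorsomorphin alone and 12.76 and 13.00 in control cells. Both stimulated arrays were above all others. Stimulation raised Pcna by 1.35 ± 0.29 (log2, SE; limma adjusted p = 0.0258), and with dorsomorphin in stimulated cells it fell by 1.32 ± 0.29 (adjusted p = 0.0269). In unstimulated cells its difference with dorsomorphin was -0.10 ± 0.29.

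Of the clamp loader subunits RFC1 to RFC5, Rfc4 and Rfc2 passed in 1 dorsomorphin comparison each. Rfc4 was at 8.21 and 8.10 in stimulated cells with dorsomorphin, 9.59 and 10.31 in stimulated cells, 8.40 and 7.51 with dorsomorphin alone and 8.89 and 8.66 in control cells. All 4 arrays with dorsomorphin were below all 4 without it, and Rfc4 fell by 1.80 ± 0.39 in stimulated cells (limma adjusted p = 0.0272). Rfc2 was at 9.35 and 9.26, 9.84 and 10.11, 9.16 and 8.46, and 10.43 and 10.48 in the same order, with the dorsomorphin arrays again lowest. It fell by 1.64 ± 0.29 in unstimulated cells (limma adjusted p = 0.0246), and the difference in stimulated cells was -0.67 (adjusted p = 0.158). Rfc5 had differences of -1.12 in stimulated cells and -1.02 in unstimulated cells, neither past the threshold. Rfc1, the large subunit, was above 0 in both, at 0.65 and 0.36, and Rfc3 was at -0.71 and 0.00; none of these passed.

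Of the 9 primase and polymerase genes, 4 fell with dorsomorphin in stimulated cells, where 12.4% of all tested genes fell, and 2 fell in unstimulated cells, where 11.1% did. By their brightest probe sets all 9 had negative log2 folds in both states (33.7% of all tested genes), with medians of -1.14 and -0.94. Some of these were close to 0, as for Pold3 in stimulated cells (-0.02, limma adjusted p = 0.975) and Pold2 in unstimulated cells (-0.18, adjusted p = 0.683). The other 2 Pold3 probe sets above the floor lay on both sides of 0. They differed by -0.26 and 1.01 in stimulated cells and by -0.21 and 0.86 in unstimulated cells. Under median centring, loess and spike-ins the medians were -1.40, -1.28 and -2.05 in stimulated cells and -0.72, -0.79 and -1.17 in unstimulated cells, and all 9 stayed below 0 except for 1 gene in unstimulated cells after median centring. Prim1, the catalytic primase subunit, was at 8.93 and 8.67 in stimulated cells with dorsomorphin, 10.39 and 11.17 in stimulated cells, 8.82 and 8.33 with dorsomorphin alone and 10.08 and 10.21 in control cells. Every dorsomorphin array was more than 1 log2 unit below every other array. Prim1 fell by 1.98 ± 0.34 in stimulated cells (limma adjusted p = 0.0145) and fell by 1.57 ± 0.34 in unstimulated cells (adjusted p = 0.0384), and its second probe set had differences of -2.18 and -2.37.

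Polymerase epsilon extends the leading strand. Pole, its catalytic subunit, was at 6.17 and 6.62 in stimulated cells with dorsomorphin, 7.41 and 7.74 in stimulated cells, 5.50 and 4.26 with dorsomorphin alone and 7.65 and 7.69 in control cells. Its lowest array was under the floor. Pole fell by 2.79 ± 0.44 with dorsomorphin in unstimulated cells (limma adjusted p = 0.0197), and with the array under the floor set to the floor the difference of means was -2.31. Its difference in stimulated cells was -1.18 (adjusted p = 0.113). Pole2, the second subunit, was at 8.21 and 8.80, 10.11 and 10.68, 8.10 and 7.41, and 8.89 and 8.99 in the same order of groups. Stimulated arrays were highest and dorsomorphin arrays lowest. Stimulation raised Pole2 by 1.45 ± 0.37 (limma adjusted p = 0.0392), dorsomorphin lowered it by 1.89 ± 0.37 in stimulated cells (adjusted p = 0.0197), and the difference in unstimulated cells was -1.19 (adjusted p = 0.0878). The Pole2 window (GRCm38.p6, RefSeq) is shown as that of a gene that both rose and fell, with its octamer TTTGGCGC on the opposite strand, beginning 11 bases into the transcript, in capitals.
Pole2 (chr12:69228141-69228440, minus strand): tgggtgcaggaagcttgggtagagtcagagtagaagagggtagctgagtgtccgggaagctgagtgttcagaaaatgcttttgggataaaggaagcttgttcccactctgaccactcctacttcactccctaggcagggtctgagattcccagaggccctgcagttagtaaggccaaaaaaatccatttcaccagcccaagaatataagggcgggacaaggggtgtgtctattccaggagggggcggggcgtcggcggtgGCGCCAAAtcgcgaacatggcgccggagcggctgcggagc

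Polymerase delta, which extends the lagging strand, had 2 subunits that fell with dorsomorphin in stimulated cells, of which 1 rose with stimulation. Pold2, the second subunit, was at 10.17 and 9.97 in stimulated cells with dorsomorphin, 11.42 and 11.74 in stimulated cells, 10.24 and 9.85 with dorsomorphin alone and 10.20 and 10.23 in control cells. It rose by 1.37 ± 0.25 with stimulation (log2, SE; limma adjusted p = 0.0178) and fell by 1.51 ± 0.25 with dorsomorphin in stimulated cells (adjusted p = 0.0130). The catalytic subunit Pold1 was at 8.60 and 8.62, 9.51 and 9.98, 8.94 and 8.78, and 9.74 and 9.85 in the same order, with stimulated and control arrays overlapping and all 4 dorsomorphin arrays below them. Pold1 differed by -0.05 with stimulation (95% interval -0.64 to 0.55) and fell by 1.14 ± 0.24 with dorsomorphin in stimulated cells (limma adjusted p = 0.0253). Pola2, the regulatory subunit of polymerase alpha, was at 8.66 and 8.07, 9.48 and 9.32, 8.27 and 6.69, and 9.35 and 9.49, and its difference in unstimulated cells was -1.94 ± 0.53 (limma adjusted p = 0.0658).

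Genes of deoxynucleotide synthesis within the set did not pass in any comparison. Rrm2, the small subunit of ribonucleotide reductase that is usually made in S phase, was at 9.14 and 9.04 in stimulated cells with dorsomorphin, 9.12 and 9.55 in stimulated cells, 9.37 and 8.85 with dorsomorphin alone and 9.58 and 9.42 in control cells. Stimulated and control arrays overlapped, and the log2 difference of -0.17 had a 95% interval of -0.86 to 0.51. Rrm1, the large subunit, was at 10.54 and 10.65, 10.29 and 10.79, 10.59 and 10.54, and 9.91 and 9.71 in the same order. Control arrays were lowest, by 0.73 ± 0.25 against stimulated cells (limma adjusted p = 0.0874). Tyms, thymidylate synthase, was at 5.0 and 5.36, 5.20 and 4.23, 5.75 and 5.24, and 4.28 and 5.19, close to the floor of 5.22 on all arrays, so no change could be read for it.

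The 2 dorsomorphin comparisons share no arrays, so their effects can be set side by side. Of the 37 genes, 28 had the same sign in both (75.7%, against 60.7% of all tested genes). Of these, 22 were lower in both states and 6 higher in both (33.7% and 27.0% of all tested genes). The other 9 were higher in unstimulated and lower in stimulated cells, among them Mcm3 and Mcm5. Across the 37 genes the effects correlated at r = 0.61, and across all tested genes at r = 0.34, a description over genes of 8 shared libraries that are not independent points. Averaging the effect over both states, a comparison added after the values had been seen, gave 12 genes that fell and 2 that rose, where 18.6% of all tested genes fell and 9.39% rose, 28% in all (18 of 37 had an unadjusted p under 0.05, against 40.3%). Those that fell included 6 of the 9 primase and polymerase genes and 4 of the 6 clamp and clamp loader genes, and those that rose were Mcm7 and Orc4. With spike-in scaling 18 fell and 0 rose, with Mcm7 at 0.36 (limma adjusted p = 0.480) and Orc4 at 0.59 (adjusted p = 0.235), and with the mean of probe sets Orc4 was at 0.08 (adjusted p = 0.785). Prim1 fell by 1.78 ± 0.24 (limma adjusted p = 0.00593), Pole fell by 1.98 ± 0.31 (adjusted p = 0.00849) and Pold1 fell by 1.04 ± 0.17 (adjusted p = 0.00968), and these 3 passed under all 17 alternatives tried. Within single states the calls of these 3 genes held less often. Prim1 passed under 14 of 18 alternatives in stimulated cells and 7 of 18 in unstimulated cells. Pole passed under 14 of 18 in unstimulated cells, and Pold1 under 9 of 18 in stimulated cells. For the averaged effect, Pcna fell by 0.71 (limma adjusted p = 0.0482) and passed in 7 of 17. The number past the threshold was 14, and it was 5 without control replicate 2, 7 without control replicate 1, 8 without stimulated replicate 2 and 9 without dorsomorphin replicate 2.

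**Figure D4:**
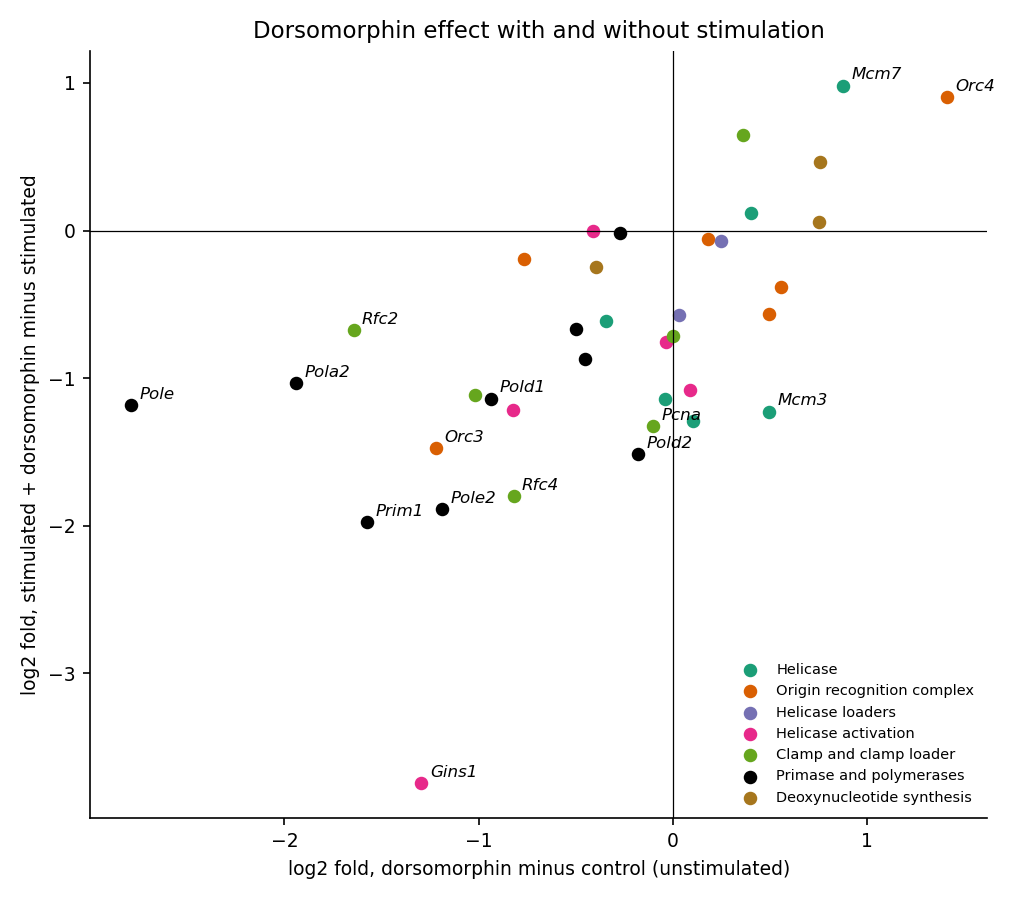
Each point is 1 of the 37 genes by its brightest probe set, with its log2 fold for dorsomorphin minus control in unstimulated cells on the x axis and for stimulated cells with dorsomorphin minus stimulated cells on the y axis, coloured by role. The 9 primase and polymerase genes (black) all lie below 0 on both axes (8 of 9 on the x axis after median centring), while Mcm7 and Orc4 lie at the upper right (Orc4 is at -0.01 on the y axis with spike-in scaling).

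Genes that work beside the 37 were described from lists of related functions. Of 36 other fork and origin factors tested, 5 rose and 2 fell with stimulation (8.98% and 14.4% of all tested genes), with a median log2 fold of -0.21 that became 0.14 with median centring, 0.15 with loess and 0.72 with spike-ins. Tipin, a fork protection factor, rose by 1.69 ± 0.27 and Pole4, a small polymerase epsilon subunit, by 1.33 ± 0.25, while Rpa1, the large subunit of the single-strand DNA binding protein, fell by 1.41 ± 0.23 and Pold4, a small polymerase delta subunit, fell by 1.50 ± 0.24. With dorsomorphin in stimulated cells 2 rose and 8 fell (9.71% and 12.4% of all tested genes), including Chtf18, part of an alternative clamp loader (-3.16 ± 0.68), and Dna2, a nuclease that trims Okazaki fragments (-2.74 ± 0.47). With dorsomorphin in unstimulated cells 7 fell and 0 rose (11.1% and 1.92% of all tested genes), including Chtf18 (-3.53 ± 0.68), Dscc1 of the same loader (-2.34 ± 0.55) and Mcm9, a helicase related to the MCM ring (-1.79 ± 0.22).

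Genes of nucleotide supply outside the set were also measured. Of 13 such genes tested, 7 rose and 2 fell with stimulation (8.98% and 14.4% of all tested genes), with a median log2 fold of 1.48. Dctd, a deaminase on the route to thymidylate, rose by 4.01 ± 0.47, Nme1, a nucleoside diphosphate kinase, by 3.73 ± 0.67, Cad, which starts pyrimidine synthesis, by 3.49 ± 0.35, and Shmt2, a mitochondrial enzyme of folate metabolism, by 3.16 ± 0.25. The 2 that fell, named after their values were seen, were Dck, the deoxycytidine salvage kinase (-3.12), and Rrm2b, a ribonucleotide reductase subunit for cells outside S phase (-1.59). With dorsomorphin in stimulated cells 6 fell and 1 rose (12.4% and 9.71% of all tested genes), including Dctd (-4.81 ± 0.47), Cad (-4.67 ± 0.35), Shmt2 (-3.55 ± 0.25) and Dtymk, thymidylate kinase (-3.05 ± 0.33); the one that rose, also named after its value was seen, was Dck (2.74). All of the nucleotide supply genes named here passed in limma, in the comparison in which they are given.

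Regulators of entry into S phase moved in both directions. Of 17 E2F, DP and pocket protein genes, 3 rose and 5 fell with stimulation (8.98% and 14.4% of all tested genes), and 4 rose and 2 fell with spike-in scaling. E2f2, a member of the E2F family, fell by 3.97 ± 0.29, Tfdp2, a DP partner of E2F proteins, fell by 3.44 ± 0.34, and Rbl2, a pocket protein that represses with E2F in resting cells, fell by 2.31 ± 0.27, while Tfdp1, the other DP partner, rose by 2.32 ± 0.32. With dorsomorphin in stimulated cells 5 rose and 2 fell, against 9.71% and 12.4% of all tested genes (2 and 4 with spike-in scaling), with Tfdp2 at 3.09 ± 0.34, E2f2 at 2.40 ± 0.29, the retinoblastoma gene Rb1 at 2.02 ± 0.49 and Tfdp1 at -2.46 ± 0.32. Of 13 genes that drive or brake the passage into S phase, 3 rose and 2 fell with stimulation, against the same 8.98% and 14.4%: Cdk6 (2.84 ± 0.37) and Ccnd2 (2.24 ± 0.47), a kinase and a cyclin of early cell-cycle entry, were among those that rose, and the inhibitors Cdkn1b (-3.52 ± 0.74) and Cdkn2d (-2.57 ± 0.47) were those that fell. With dorsomorphin in stimulated cells 3 fell and 2 rose (12.4% and 9.71% of all tested genes), with Ccnd2 at -3.96 ± 0.47, Cdk4 at -3.42 ± 0.27, Cdk6 at -3.26 ± 0.37 and Cdkn1b at 3.33 ± 0.74.

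Of 19 tested genes of S, G2 and mitosis, 0 rose and 3 fell against control cells in limma, a share that fell (15.8%) near that of all tested genes (14.4%). The 3 were Cenpa, the centromeric histone (-2.31 ± 0.38), Nusap1, a spindle protein (-1.86 ± 0.48), and Birc5, survivin (-1.20 ± 0.32). Their median log2 fold was -0.86, against 0.47 for the replication genes and -0.27 over all genes, and it was -0.50 with median centring, -0.43 with loess and 0.07 with spike-ins, where 0 fell. With dorsomorphin in stimulated cells Cenpa (2.08 ± 0.38) and Birc5 (1.30 ± 0.32) rose and 0 fell, where 9.71% and 12.4% of all tested genes did, and with spike-in scaling 0 rose. Myc, a transcription factor induced early by the T cell receptor, was at 8.53 and 8.73 in stimulated cells with dorsomorphin, 13.48 and 13.55 in stimulated cells, 8.35 and 8.42 with dorsomorphin alone and 10.12 and 9.89 in control cells, so that the stimulated arrays stood more than 3 log2 units above all others.

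**Figure D5:**
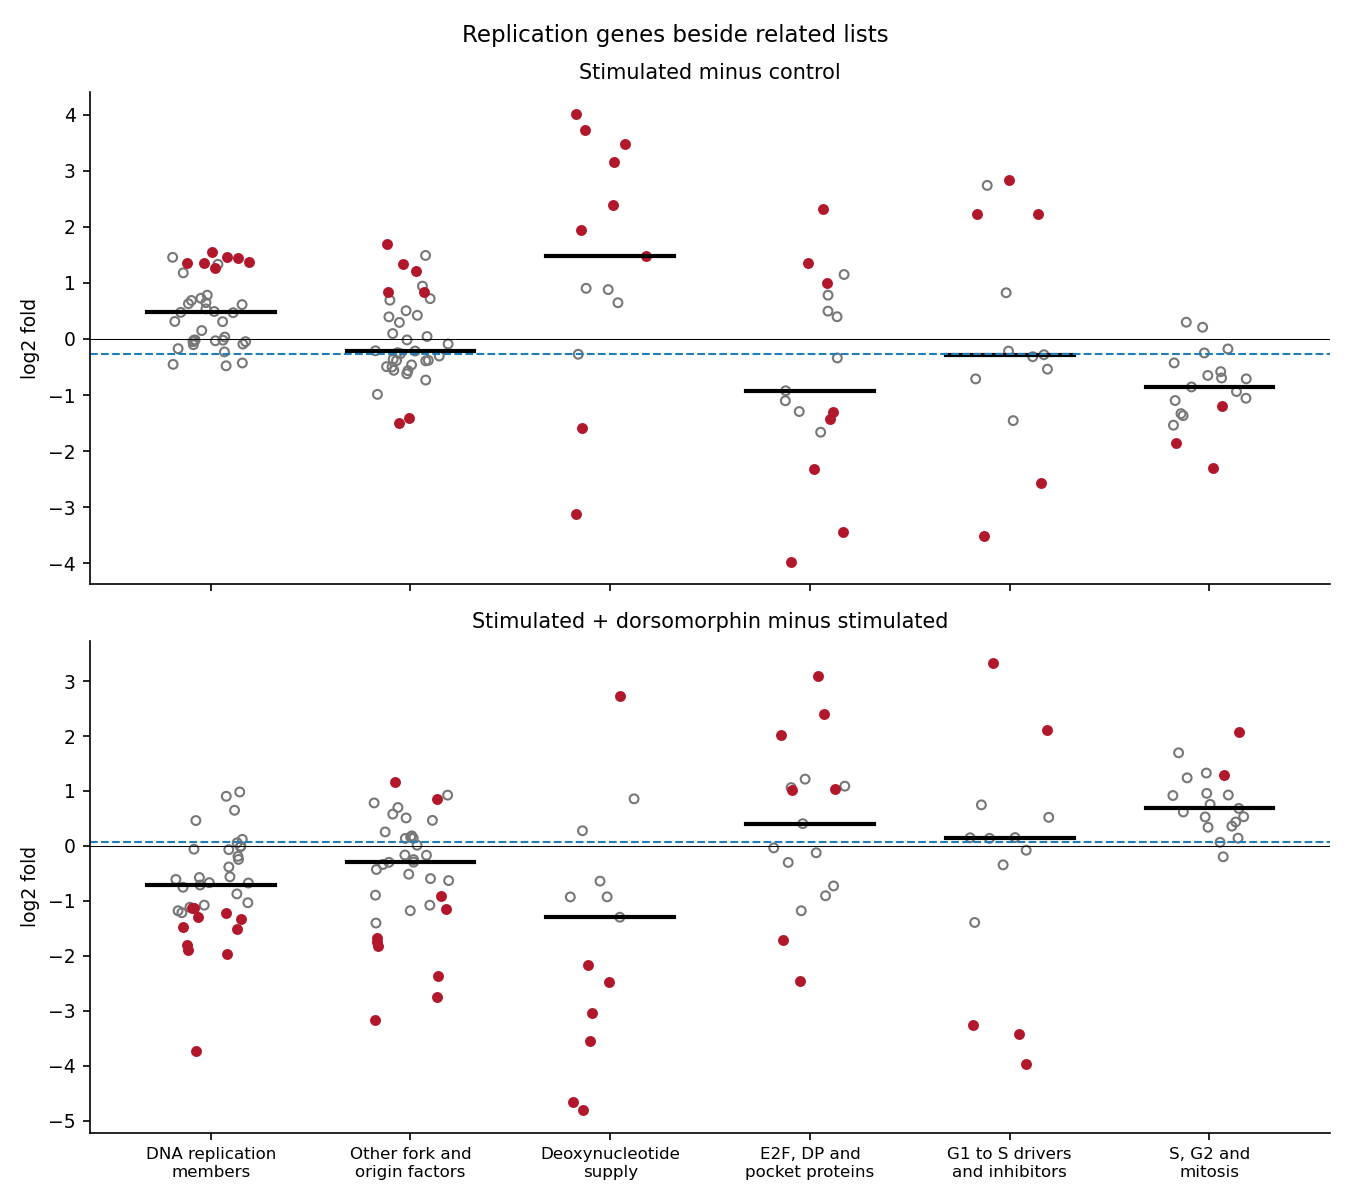
Log2 folds (y axis) of the 37 replication genes and of 5 related lists, for stimulated minus control cells (top) and stimulated cells with dorsomorphin minus stimulated cells (bottom). Filled red points passed in limma, open points did not, black bars are medians and the dashed line is the median over all tested genes; in the top panel the nucleotide supply median is 1.48, the replication median 0.47 and the median of S, G2 and mitosis -0.86, which is 0.07 with spike-in scaling.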

How the data were processed

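Total RNA of 8 samples was labelled with biotin through in vitro transcription (per the labels) and hybridised to Affymetrix arrays. The authors deposited linear intensity values for 45101 probe sets on each array. RMA and the affy package are named in the submitters' processing notes, yet the values were not on a log2 scale and had a 2% trimmed mean of 500 on every array. How they were made is not stated in the sources used. The log2 of the deposited intensity was used without further normalization. Groups came from the sample titles and the treatment label. Control probe sets were dropped, 34945 probe sets had 1 gene symbol, and each gene took its brightest one. Genes above the floor (signal 37.3) on at least 2 arrays were tested with limma 3.58.1 (R 4.3.3) in 1 model of all arrays, with 4 residual and 1.90 prior degrees of freedom, two-sided p-values and Benjamini-Hochberg adjustment over 13983 genes. A log2 fold is the first-named group minus the second, with limma's moderated SE. Only 2 arrays per group limit the precision.

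All replication genes could be named, with values on every array for those past the threshold and for the MCM ring, Cdc6, Cdt1, Pcna, Rrm2 and Tyms. From the related lists up to 4 genes past the threshold were named per comparison, by size of change, and Myc was named in any case. Array values of Gins2, Pola2 and Rrm1 were added after they were seen. The members, lists and tests were chosen with earlier results of these data known. The alternatives were other scalings, filters, pseudocounts and models, the mean of probe sets, a replicate block and each array left out; spike-in scaling and the averaged dorsomorphin effect were added after the values were seen. The limma step was tested on simulated data.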

Additional observations from a re-analysis of the deposited data

How the results depend on the processing

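The number of replication genes past the threshold depended on the processing, and no replication gene past the threshold reversed its sign under any alternative. For stimulation (7 genes) it was 4 with median centring, 11 with spike-in scaling, 4 without a filter, 1 with only the arrays compared, and 0 to 8 when single arrays were left out. For dorsomorphin in unstimulated cells (4 genes) it was 1 with median centring, 1 with spike-ins, 2 without a filter, 11 with a 60th percentile filter, 8 with log2(signal + 32), 0 with only the arrays compared, 11 with a trended robust fit, and 0 to 4 with single arrays left out. For dorsomorphin in stimulated cells (11 genes) it was 5 with the mean of probe sets, 5 with median centring, 5 without a filter, 0 with only the arrays compared, and 0 to 11 with single arrays left out. For the interaction (0 genes, 7 at an unadjusted p under 0.05) it was 3 with the 60th percentile filter, 2 with log2(signal + 32), 4 with the trended robust fit and 0 to 1 with single arrays left out. For the averaged dorsomorphin effect (14 genes) it was 9 with the mean of probe sets and 5 to 14 with single arrays left out. Stimulation with dorsomorphin gave 0 genes under every alternative. These counts, and those under alternatives for the averaged effect above, are given without the share of all genes called in each setting. They describe how far the calls depend on processing, and a change in them is not read as particular to the replication genes. The filters also changed the number of genes tested, to 18193 without a filter and 9640 with the 60th percentile filter. The labels do not explain the replicate number. The log2 3′ minus 5′ signals of the spike-ins Dap and Thr split by it, at 1.11 to 1.37 and 1.62 to 1.76 on the replicate 1 arrays against 2.44 to 2.79 and 2.69 to 3.29 on the replicate 2 arrays, while correlations of same-numbered deviations were 0.07 to 0.18, over 0.1 for 4 of 6 pairs of groups, so the number may mark a batch but was not taken as a pairing. Within each number, 7 of 7, 4 of 4 and 11 of 11 genes called for stimulation, dorsomorphin in unstimulated cells and in stimulated cells kept their sign. These genes had been called on the same arrays, which nearly fixed that outcome, so no conclusion about a batch is drawn from it. With the replicate block the counts were 7, 5, 12, 0, 0 and 14 for stimulation, dorsomorphin in unstimulated cells, in stimulated cells, stimulation with dorsomorphin, the interaction and the average. Fits with only the arrays compared have fewer samples; the cause of the other changes was not tested. Signals near the floor, as for Tyms, Orc1 and 1 array each of Gins1 and Pole, limit what can be read.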
